A study of Homo sapiens with 12 samples.

Results

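The expression of 10 genes of the NRF2 antioxidant pathway was followed by RNAseq in SKBR-3, a widely used breast carcinoma cell line with amplified HER2, among the 20531 genes listed in each library. The 10 genes are NFE2L2, which encodes NRF2, its inhibitor KEAP1, and the NRF2 targets SLC7A11, GCLC, GCLM, TXNRD1, SRXN1, NQO1, HMOX1 and OSGIN1. They were taken by symbol. The cells had received a pool of non-targeting (NT) siRNA or a pool of FOXA1 siRNA for 48 h by the labels, and then DMSO or 300 nM lapatinib, an inhibitor of the HER2 and EGFR kinases, for 24 h. This gave 4 groups of 3 replicates, 12 libraries in all, of the same cell line in the same medium. Every group had been transfected with an siRNA pool, so none shows untransfected cells, and the labels do not say whether the replicates were separate cultures. The p-values then measure only the spread between these samples, which may be technical. All libraries are of 1 cell line, so the values describe SKBR-3 and no other breast cancer cell.

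NRF2 is a transcription factor that KEAP1 holds in the cytoplasm and presents to a ubiquitin ligase for destruction. Oxidants and electrophiles modify KEAP1, NRF2 then escapes destruction, pairs with a small MAF protein and binds antioxidant response elements near genes for glutathione synthesis, thioredoxin recycling, quinone reduction and haem breakdown. Much of this control acts on the NRF2 protein, which was not measured here. In HER2-amplified breast cancer cells, signalling through AKT, which HER2 drives, is among the inputs known to act on NRF2.

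All 10 genes passed the filter of at least 10 counts in at least 1 library of each comparison. In the control cells, NT siRNA with DMSO, levels per transcript length ranged from 5.52 ± 0.529 TPM (transcript abundance corrected for length and library depth; mean ± SD, n = 3) for SLC7A11 to 284 ± 12.3 TPM for TXNRD1. The libraries held 25749578 to 32271850 expected counts, with a median of 30542429. FOXA1, the siRNA target, lay between 8307 and 8765 normalized counts in NT siRNA with DMSO and between 1159.8 and 1563 in FOXA1 siRNA with DMSO, and in lapatinib between 12166 and 13174 with NT siRNA and between 1641 and 2383 with FOXA1 siRNA. Normalized counts are counts scaled to the average depth of the 12 libraries. The libraries followed their labels for the siRNA target in all 4 groups. As markers of HER2-amplified luminal epithelial cells, 7 genes were checked. Of these, 6 were abundant and CDH1, which encodes E-cadherin, was nearly absent at 1.9 to 18.9 normalized counts, so CDH1 did not mark these cells. The summed level of the 7 was 12361 to 19428 TPM. Of 9 markers of leukocytes, fibroblasts, endothelium, myofibroblasts, basal epithelium and oestrogen receptor positive cells, none exceeded 5.58 TPM, and their sum was 5.2 to 7.95 TPM with NT siRNA and 7.79 to 10.4 TPM with FOXA1 siRNA.

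Replicate 2 stood apart in every group. The chi-square per degree of freedom between replicates 1 and 3 was 3.75 to 5.94, and between replicate 2 and either of them 12.7 to 18.5. Results are therefore given with all 12 libraries, and without replicate 2 of each group where that changed a call or moved a called value by more than 1.5 times.

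The promoter stretches below show where the DNA element bound by NRF2 occurs near the start sites of these genes. The core of the antioxidant response element was searched as TGACNNNGC on both strands of RefSeq promoters (GRCh38.p14), which run from 250 bases before to 50 bases after a start site. A promoter was matched for 8 of the 10 genes, all but HMOX1 and SLC7A11, with 11 start sites in all. A core was present at 4 of the 11 start sites, in 3 of the 8 genes, KEAP1, GCLM and TXNRD1. Elements further from a start site were not searched. Of all 35116 promoters, 13.3% held a core. The cores lying wholly before the start site are in capitals and each stretch is given 5′ to 3′ on the strand of its gene. A core on the opposite strand is read here as its reverse complement, which starts with GC and ends with TCA. A further core, GCTCCGTCA, lies at -8 to 1 from the upstream start site of TXNRD1. It crosses that site and is not printed.
KEAP1 (chr19:10502772-10502871, minus strand, 100 to 1 bases before the start site): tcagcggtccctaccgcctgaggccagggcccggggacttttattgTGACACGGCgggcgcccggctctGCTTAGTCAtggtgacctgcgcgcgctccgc
GCLM (chr1:93909431-93909530, minus strand, 100 to 1 bases before the start site): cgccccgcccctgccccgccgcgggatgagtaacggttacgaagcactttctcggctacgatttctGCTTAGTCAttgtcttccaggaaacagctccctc
TXNRD1, upstream start site (chr12:104215634-104215733, plus strand, 145 to 46 bases before it): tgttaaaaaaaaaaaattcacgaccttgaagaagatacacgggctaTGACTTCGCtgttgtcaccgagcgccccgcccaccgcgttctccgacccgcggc
TXNRD1, downstream start site (chr12:104286884-104286983, plus strand, 148 to 49 bases before it): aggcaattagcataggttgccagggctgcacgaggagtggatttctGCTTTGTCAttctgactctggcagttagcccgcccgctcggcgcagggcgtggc
KEAP1 held 2 cores before the start site shown, which lies inside the interval of the gene (chr19:10486125-10503356) and not at its 5′ end. KEAP1 and GCLM shared the same 9 letters, GCTTAGTCA. A match says only that these letters are present, since binding was not measured in these libraries. The site of AP-1, TGANTCA, which shares its first letters with the core, was present in 7.71% of promoters and among these genes in OSGIN1 alone. The forkhead motif TGTTTNC was present in 17.99% of promoters, in GCLM and at the downstream start site of TXNRD1.

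Lapatinib in cells with NT siRNA raised 6 of the 10 genes and lowered 3, at an adjusted p under 0.05 by the quasi-likelihood test of edgeR, while 30.5% of the 13713 genes tested were called higher and 29.2% lower. The genes that rose were NFE2L2, KEAP1, SLC7A11, TXNRD1, NQO1 and HMOX1, those that fell were GCLC, SRXN1 and OSGIN1, and GCLM did not pass. Only SLC7A11 also reached a log2 fold change of 1 in size, which 13.8% of all genes did. The median of the 10 log2 fold changes was 0.25, against 0.03 over all genes tested. Since RNA was taken from bulk cultures, a change in the number of cells in some state and a change of RNA per cell cannot be told apart.

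FOXA1 siRNA in DMSO raised 7 of the 10 genes and lowered 2, SLC7A11 and OSGIN1, where 21.9% of 13694 genes were called higher and 21.3% lower. KEAP1 did not pass. None of the 10 reached a log2 fold change of 1 in size, against 6.84% of all genes, and their median was 0.32 against -0.01 over all genes. Without replicate 2 of both groups, 8 of the 10 were higher and 1 lower. That fit called 7508 of all genes, against 3002 higher and 2910 lower with replicate 2.

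FOXA1 siRNA in lapatinib raised 5 of the 10 genes, NFE2L2, GCLC, GCLM, SRXN1 and HMOX1, and lowered SLC7A11 and TXNRD1, with 22.7% of 13727 genes called higher and 22.2% lower. The fold minimum was reached by none of the 10 and by 8.41% of all genes. The median of the 10 was 0.23, and -0.01 over all genes.

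Lapatinib in cells with FOXA1 siRNA raised NFE2L2, KEAP1, SLC7A11 and HMOX1 and lowered GCLC, SRXN1 and OSGIN1, so that 4 of the 10 were higher and 3 lower, where 29% of 13745 genes were called higher and 29.1% lower. None of the 10 reached the fold minimum, which 10.1% of all genes did, and the median of the 10 was -0.07 against 0.01 over all genes. Cells with both FOXA1 siRNA and lapatinib, set against cells with neither, had 7 of the 10 genes higher and 2 lower, with 33.9% of 13813 genes called higher and 32.5% lower. GCLC did not pass there, none of the 10 reached the fold minimum that 18.6% of all genes reached, and the median of the 10 was 0.42 against 0.02 over all genes. These 5 comparisons share groups, so their counts are not separate evidence.

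Whether the lapatinib response itself differed with FOXA1 siRNA was tested as an interaction over all 12 libraries. It was called for 2 of the 10 genes, SRXN1 with a higher and TXNRD1 with a lower response under FOXA1 siRNA, where 3.99% of 14012 genes had a higher and 3.2% a lower response. The other 8 genes did not pass, and the intervals of the difference are given with each gene below.

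**Figure D1:**
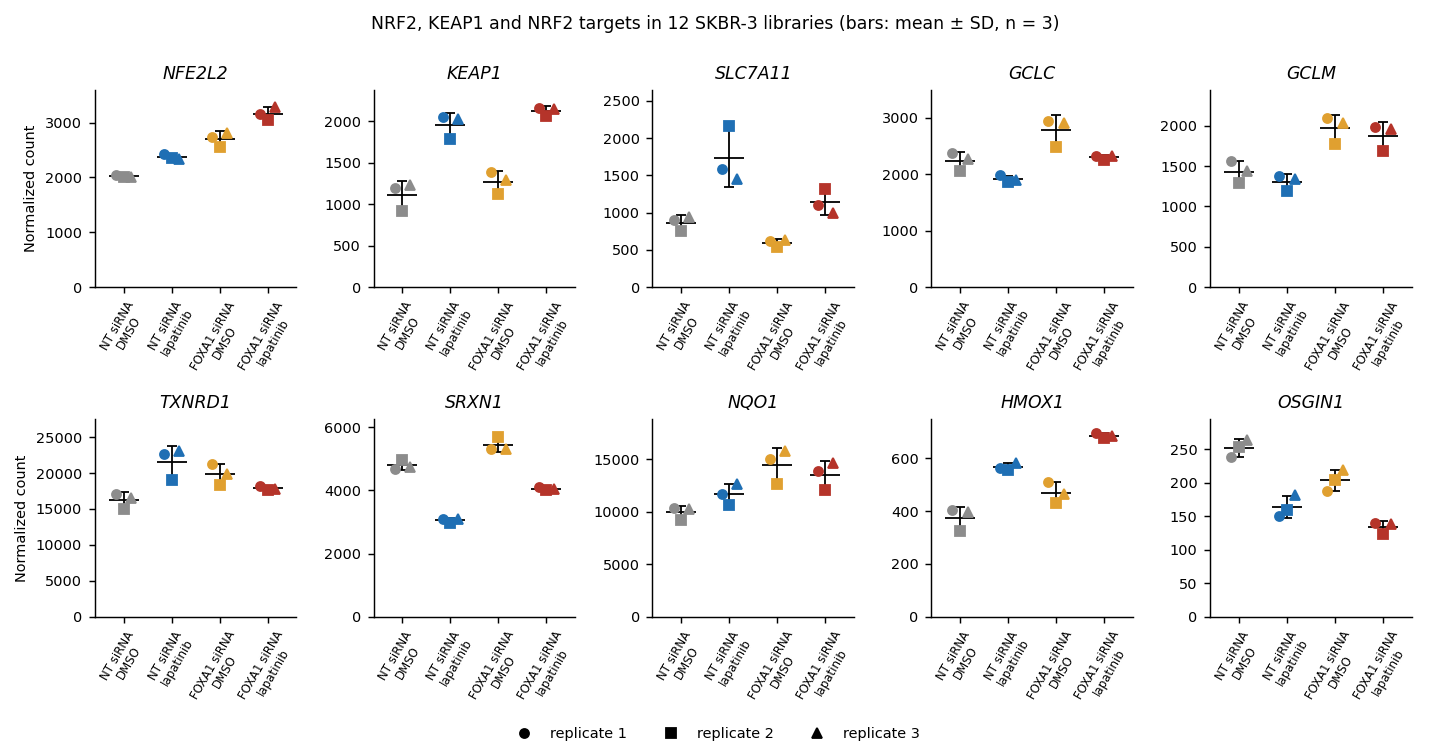
Normalized counts (vertical axes, from 0) of the 10 genes in the 12 libraries, by group; symbols mark replicate numbers, and bars the mean ± SD of 3 replicates. NFE2L2 was lowest in NT siRNA with DMSO, at 2000.3 to 2048, and highest in FOXA1 siRNA with lapatinib, at 3044 to 3283, while TXNRD1 was highest in NT siRNA with lapatinib, at 19042 to 23028.

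NFE2L2 (chr2:177230303-177264727), the gene of NRF2 itself, was measured at 2048, 2015 and 2000.3 normalized counts in replicates 1, 2 and 3 of NT siRNA with DMSO, and at 2422, 2356 and 2335 with lapatinib. With FOXA1 siRNA it was at 2743, 2561 and 2818 in DMSO and at 3149, 3044 and 3283 in lapatinib. The 4 groups did not overlap, each treatment alone gave a higher level, and the level with both was the highest. The log2 fold change with lapatinib was 0.25 ± 0.05 (SE; adjusted p = 0.00245) with NT siRNA and 0.23 ± 0.05 (adjusted p = 0.00631) with FOXA1 siRNA. FOXA1 siRNA gave 0.43 ± 0.05 (adjusted p = 0.000357) in DMSO and 0.41 ± 0.05 (adjusted p = 0.000338) in lapatinib. Cells with both differed from cells with neither by 0.67 ± 0.05 (adjusted p = 8e-06), a 1.59-fold higher level. The lapatinib responses with the siRNA pools had a difference of -0.01 on the log2 scale (95% interval -0.15 to 0.14), which did not pass. Exons of NFE2L2 share 3509 bases with HNRNPA3 on the opposite strand (GENCODE v44), and 2037 bases with the lncRNA ENSG00000213963 on the same strand. The sources used here do not state that counting used strand, so reads of NFE2L2 and either neighbor may be mixed.

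KEAP1 (chr19:10486125-10503356), the adaptor that sends NRF2 to destruction, stood at 1188, 919 and 1231 normalized counts in NT siRNA with DMSO and at 2053, 1787 and 2022 with lapatinib. Under FOXA1 siRNA, DMSO samples had 1386, 1117 and 1286 and lapatinib samples 2163, 2059 and 2147. All 6 lapatinib libraries lay above all 6 DMSO libraries, while the siRNA pools overlapped in DMSO and lay close together in lapatinib. Replicate 2 was the lowest in each group. Lapatinib raised KEAP1 by 0.83 ± 0.11 (log2 fold change ± SE; adjusted p = 0.000269) with NT siRNA, which is 1.78-fold, and by 0.76 ± 0.08 (adjusted p = 8.71e-05) with FOXA1 siRNA. The difference with FOXA1 siRNA was 0.20 ± 0.12 in DMSO (adjusted p = 0.217, and 0.00691 with replicate number as a block in the fit) and 0.11 ± 0.07 in lapatinib (adjusted p = 0.203, and 0.0332 with the block). With 1 library left out these ranged from 0.08 to 0.27 and from 0.05 to 0.15, with no call. Without replicate 2, the value in DMSO was 0.16 (adjusted p = 0.0393) and that in lapatinib 0.07 (adjusted p = 0.249). With both treatments KEAP1 was 0.96 ± 0.10 higher than in cells with neither (adjusted p = 4.73e-05), and the interaction was -0.06 (95% interval -0.38 to 0.26).

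SLC7A11 (chr4:138164097-138242349) encodes xCT, the subunit of the cystine importer that supplies cysteine for glutathione, and is also a target of the stress factor ATF4. Its normalized counts were 903, 754 and 937 in NT siRNA with DMSO and 1579.7, 2168 and 1445 with lapatinib. Under FOXA1 siRNA the DMSO samples had 619, 541 and 629, and the lapatinib samples 1097, 1322 and 989. No 2 groups overlapped, lapatinib samples were higher under each siRNA, and FOXA1 siRNA samples were lower under each drug condition. Replicate 2 had the lowest level of its group in DMSO and the highest in lapatinib. The log2 fold change with lapatinib was 1.02 ± 0.15 (adjusted p = 0.000498), or 2.03-fold, with NT siRNA and 0.94 ± 0.11 (adjusted p = 0.000202) with FOXA1 siRNA. Without replicate 2 these were 0.72 and 0.74, so the fold minimum was then not reached. FOXA1 siRNA lowered the gene, at -0.52 ± 0.10 (adjusted p = 0.00351) in DMSO and -0.61 ± 0.16 (adjusted p = 0.0148) in lapatinib. The latter call was lost without FOXA1 siRNA lapatinib replicate 1 (adjusted p = 0.0551) or replicate 3 (adjusted p = 0.0584), but held without replicate 2 of both groups at -0.55 (adjusted p = 0.000691). Cells with both treatments lay 0.42 ± 0.12 above cells with neither (adjusted p = 0.0123), and 0.19 (adjusted p = 0.033) without replicate 2. The interaction was -0.07 (95% interval -0.54 to 0.39). The gene shares 865 exon bases with SLC7A11-AS1 on the opposite strand.

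GCLC (chr6:53497341-53545101) and GCLM (chr1:93885199-93909430) encode the catalytic and the modifier subunit of glutamate-cysteine ligase, the rate-limiting enzyme of glutathione synthesis. GCLC was at 2376, 2062 and 2273 normalized counts in NT siRNA with DMSO and at 1984, 1870.2 and 1901 with lapatinib, and in cells with FOXA1 siRNA at 2954, 2490.3 and 2919 in DMSO and 2333, 2251 and 2317 in lapatinib. GCLM was at 1562, 1289.8 and 1439.6 in NT siRNA with DMSO, at 1381, 1192 and 1339.6 with lapatinib, at 2099.9, 1774 and 2029 in FOXA1 siRNA with DMSO and at 1980.3, 1688 and 1966 with lapatinib. Both subunits were higher with FOXA1 siRNA than with NT siRNA under each drug condition, with no overlap. Lapatinib samples of GCLC lay below DMSO samples under each siRNA, whereas those of GCLM overlapped with DMSO.

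For GCLC, lapatinib lowered the level, at -0.20 ± 0.06 (log2 fold change ± SE; adjusted p = 0.0246) with NT siRNA and -0.27 ± 0.07 (adjusted p = 0.0106) with FOXA1 siRNA. The call with NT siRNA was lost without NT siRNA DMSO replicate 1 (adjusted p = 0.100) or 3 (adjusted p = 0.0612) and without NT siRNA lapatinib replicate 2 (adjusted p = 0.0572) or 3 (adjusted p = 0.0735), and held without replicate 2 of both groups (adjusted p = 0.00128). For GCLM the lapatinib differences were -0.11 (95% interval -0.31 to 0.09; adjusted p = 0.297) and -0.06 (95% interval -0.25 to 0.14; adjusted p = 0.574), neither of which passed. FOXA1 siRNA raised GCLC by 0.33 ± 0.08 (adjusted p = 0.0101) in DMSO and 0.25 ± 0.05 (adjusted p = 0.00399) in lapatinib. It raised GCLM by 0.47 ± 0.09 (adjusted p = 0.00303) in DMSO and 0.52 ± 0.09 (adjusted p = 0.00164) in lapatinib. In cells with both treatments, GCLM stayed 0.42 ± 0.09 above cells with neither (adjusted p = 0.00265), while GCLC differed by 0.07 (95% interval -0.07 to 0.20; adjusted p = 0.326), and by 0.01 without replicate 2. The interaction was -0.06 for GCLC (95% interval -0.27 to 0.16) and 0.07 for GCLM (95% interval -0.22 to 0.35). Over the 12 libraries the log2 levels of the subunits had a Pearson correlation of 0.86, a description across samples that share groups and replicate numbers. GCLC shares 529 exon bases with a lncRNA on the same strand and 305 with GCLC-AS1 on the opposite strand.

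TXNRD1 (chr12:104215779-104350307) encodes cytosolic thioredoxin reductase, the selenoprotein that uses NADPH to keep thioredoxin reduced. The normalized counts were 17122, 15015 and 16504 in NT siRNA with DMSO and 22597, 19042 and 23028 with lapatinib. Cells with FOXA1 siRNA had 21202, 18319 and 19909 in DMSO and 18266, 17660.4 and 17717 in lapatinib. Lapatinib samples lay above DMSO samples with NT siRNA and below them with FOXA1 siRNA, with no overlap in either case. Likewise, FOXA1 siRNA samples lay above NT siRNA samples in DMSO and below them in lapatinib.

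The lapatinib response of TXNRD1 was 0.43 ± 0.08 (log2 fold change ± SE; adjusted p = 0.00189), or 1.35-fold, with NT siRNA. With FOXA1 siRNA it was -0.14 ± 0.06 (adjusted p = 0.0578), which did not pass in the fit of all 6 libraries but did with the replicate block (adjusted p = 0.00841), with upper-quartile scaling (adjusted p = 0.0459), without FOXA1 siRNA DMSO replicate 2 (-0.20, adjusted p = 0.00664), and without replicate 2 of both groups (-0.19, adjusted p = 0.00608). The difference between the responses was -0.56 ± 0.11 (adjusted p = 0.00922). This call held in all 12 fits that left out 1 library, at -0.64 to -0.51, with the block (adjusted p = 8.91e-05) and without replicate 2 (-0.63, adjusted p = 0.000125). FOXA1 siRNA raised the gene by 0.30 ± 0.06 (adjusted p = 0.00576) in DMSO and lowered it, at -0.28 ± 0.07 (adjusted p = 0.0155), in lapatinib. The latter call was lost without NT siRNA lapatinib replicate 1 (adjusted p = 0.0592) or 3 (adjusted p = 0.0578) and without FOXA1 siRNA lapatinib replicate 3 (adjusted p = 0.0511), and was kept without replicate 2 of both groups (-0.35, adjusted p = 0.000182). Cells with both treatments differed from cells with neither by 0.17 ± 0.05 (adjusted p = 0.0177), and by 0.11 (adjusted p = 0.0372) without replicate 2 of both groups. That call was lost when all 12 libraries were fitted together (adjusted p = 0.113), and without NT siRNA DMSO replicate 2 (0.10, adjusted p = 0.0645) or 3 (adjusted p = 0.0677) or FOXA1 siRNA lapatinib replicate 1 (adjusted p = 0.0608).

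SRXN1 (chr20:646615-653200) encodes sulfiredoxin, which repairs overoxidized peroxiredoxins. It was measured at 4658, 4959 and 4748 normalized counts in NT siRNA with DMSO and 3105, 2976 and 3096 with lapatinib, and in cells with FOXA1 siRNA at 5301, 5699.7 and 5304 in DMSO and 4117, 4003 and 4050.3 in lapatinib. The 4 groups did not overlap. Lapatinib samples were lower under each siRNA and FOXA1 siRNA samples higher under each drug condition, so the lowest group was NT siRNA with lapatinib. Lapatinib lowered SRXN1, at -0.63 ± 0.05 (log2 fold change ± SE; adjusted p = 2.4e-05), to 0.648 of the DMSO level, with NT siRNA and -0.41 ± 0.04 (adjusted p = 9.4e-05) with FOXA1 siRNA. FOXA1 siRNA raised it by 0.20 ± 0.05 (adjusted p = 0.0146) in DMSO and by 0.40 ± 0.04 (adjusted p = 0.000215) in lapatinib. The call in DMSO was lost without NT siRNA DMSO replicate 1 (adjusted p = 0.0604) or 3 (adjusted p = 0.0545). With both treatments SRXN1 was at -0.21 ± 0.05 relative to cells with neither (adjusted p = 0.00402).

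The fall of SRXN1 under lapatinib was smaller with FOXA1 siRNA by 0.22 ± 0.06 (adjusted p = 0.0449). That call lay close to the limit and was lost in 11 of the 12 fits that left out 1 library, all except the one without FOXA1 siRNA DMSO replicate 2 (adjusted p = 0.0281), with adjusted p of up to 0.112 and a difference of 0.20 to 0.26. It was also lost with upper-quartile scaling (adjusted p = 0.0639) and with no filter on low counts (adjusted p = 0.0689), and was kept with the block (adjusted p = 0.0116) and without replicate 2 of every group (adjusted p = 0.0141). Within same-numbered samples the log2 ratio of lapatinib to DMSO was -0.59, -0.74 and -0.62 with NT siRNA and -0.36, -0.51 and -0.39 with FOXA1 siRNA, so the fall was smaller with FOXA1 siRNA in 3 of 3 replicate numbers. SRXN1 shares 2292 exon bases with a readthrough gene on the same strand, ENSG00000270299, whose reads cannot be separated from it.

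NQO1 (chr16:69709401-69726560) encodes NAD(P)H quinone dehydrogenase, which reduces quinones and is widely used as a readout of NRF2 activity. Its normalized counts were 10325, 9211 and 10269.8 in NT siRNA with DMSO and 11671, 10612 and 12648 with lapatinib. Cells with FOXA1 siRNA had 15003, 12601 and 15728 in DMSO and 13872, 12101 and 14606 in lapatinib. Replicate 2 was the lowest in all 4 groups. With NT siRNA the lapatinib samples lay above the DMSO samples, while with FOXA1 siRNA they overlapped.

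FOXA1 siRNA raised NQO1 by 0.55 ± 0.08 (log2 fold change ± SE; adjusted p = 0.0012), or 1.47-fold, in DMSO. In lapatinib the difference was 0.21 ± 0.09 (adjusted p = 0.0799), which passed with the block (adjusted p = 7.92e-05), without FOXA1 siRNA lapatinib replicate 2 (0.28, adjusted p = 0.0193) and without replicate 2 of both groups (0.22, adjusted p = 0.00766). Lapatinib raised the gene by 0.25 ± 0.07 (adjusted p = 0.0169) with NT siRNA. This call was lost without NT siRNA DMSO replicate 2 (adjusted p = 0.0686) and without NT siRNA lapatinib replicate 1 (adjusted p = 0.0508) or 3 (adjusted p = 0.0596), and was kept without replicate 2 of both groups (adjusted p = 0.000708). With FOXA1 siRNA the response was -0.09 (95% interval -0.30 to 0.13; adjusted p = 0.454, and 0.0246 with the block). Under both treatments NQO1 was 0.47 ± 0.07 higher than in cells with neither (adjusted p = 0.000594). The interaction of -0.32 ± 0.13 (95% interval -0.61 to -0.04) did not pass in the fit of all libraries (adjusted p = 0.169), and passed with the block (adjusted p = 0.00071) and without replicate 2 (-0.35, adjusted p = 0.00408). Same-numbered samples gave log2 ratios of lapatinib to DMSO of 0.18, 0.20 and 0.30 with NT siRNA and -0.11, -0.06 and -0.11 with FOXA1 siRNA. NQO1 shares 575 exon bases with a lncRNA on the opposite strand.

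**Figure D2:**
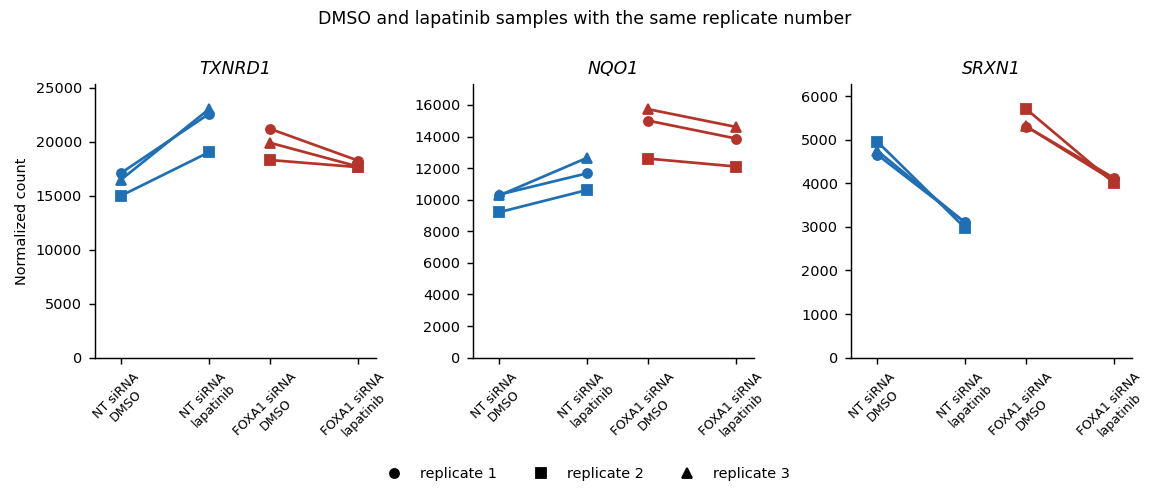
Normalized counts (vertical axes, from 0) of TXNRD1, NQO1 and SRXN1, with lines joining the DMSO and lapatinib samples of the same replicate number, in blue for NT siRNA and in red for FOXA1 siRNA. For TXNRD1 and NQO1 all 3 lines go up with NT siRNA and down with FOXA1 siRNA, and for SRXN1 all 6 go down.

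HMOX1 (chr22:35381096-35394207) encodes haem oxygenase, the inducible enzyme that breaks haem into biliverdin, iron and carbon monoxide. The normalized counts were 403, 326 and 395 in NT siRNA with DMSO and 565, 556 and 582 with lapatinib. Cells with FOXA1 siRNA had 511, 429 and 463 in DMSO and 696, 677 and 684 in lapatinib. The 4 groups did not overlap, and the order of the groups was the same as for KEAP1, with lapatinib above DMSO and FOXA1 siRNA above NT siRNA. Lapatinib raised HMOX1 by 0.62 ± 0.10 (log2 fold change ± SE; adjusted p = 0.000642) with NT siRNA and by 0.56 ± 0.08 (adjusted p = 0.000503) with FOXA1 siRNA. FOXA1 siRNA raised it by 0.33 ± 0.10 (adjusted p = 0.0341) in DMSO and by 0.27 ± 0.06 (adjusted p = 0.0089) in lapatinib. The call in DMSO was lost without NT siRNA DMSO replicate 2 (adjusted p = 0.0642) or 3 (adjusted p = 0.0598) and without FOXA1 siRNA DMSO replicate 1 (adjusted p = 0.126) or 3 (adjusted p = 0.0829). In cells with both treatments HMOX1 was 0.90 ± 0.09 higher than in cells with neither (adjusted p = 4.39e-05), or 1.87-fold. The interaction was -0.05 (95% interval -0.32 to 0.22).

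OSGIN1 (chr16:83953240-83966332), a growth inhibitor induced by oxidative stress, had the lowest counts of the 10 genes. It was at 238, 253 and 265 normalized counts in NT siRNA with DMSO and at 149.8, 160.0 and 182 with lapatinib, and in cells with FOXA1 siRNA at 188, 204 and 219 in DMSO and 140.5, 124 and 138 in lapatinib. The groups did not overlap, and each treatment alone went with a lower level. The fall with lapatinib was -0.60 ± 0.12 (log2 fold change ± SE; adjusted p = 0.00233) with NT siRNA and -0.59 ± 0.12 (adjusted p = 0.00245) with FOXA1 siRNA. Under both treatments OSGIN1 was at -0.88 ± 0.11 relative to cells with neither (adjusted p = 0.000158), or 0.543 of their level. FOXA1 siRNA gave -0.29 ± 0.10 in DMSO at the edge of the limit (adjusted p = 0.0499), and this call was lost in all 6 fits with 1 library omitted (adjusted p = 0.0585 to 0.154), without replicate 2 of both groups (adjusted p = 0.0622), with DESeq2 (adjusted p = 0.0883), with upper-quartile scaling (adjusted p = 0.056) and with no filter (adjusted p = 0.0592). With the block the call was kept (adjusted p = 0.0108). In lapatinib the difference was -0.30 ± 0.13 (adjusted p = 0.0871, 0.0353 with the block, and 0.0478 when all 12 libraries were fitted together). The interaction was 0.02 (95% interval -0.31 to 0.35). OSGIN1 shares 457 exon bases with MLYCD on the same strand.

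**Figure D3:**
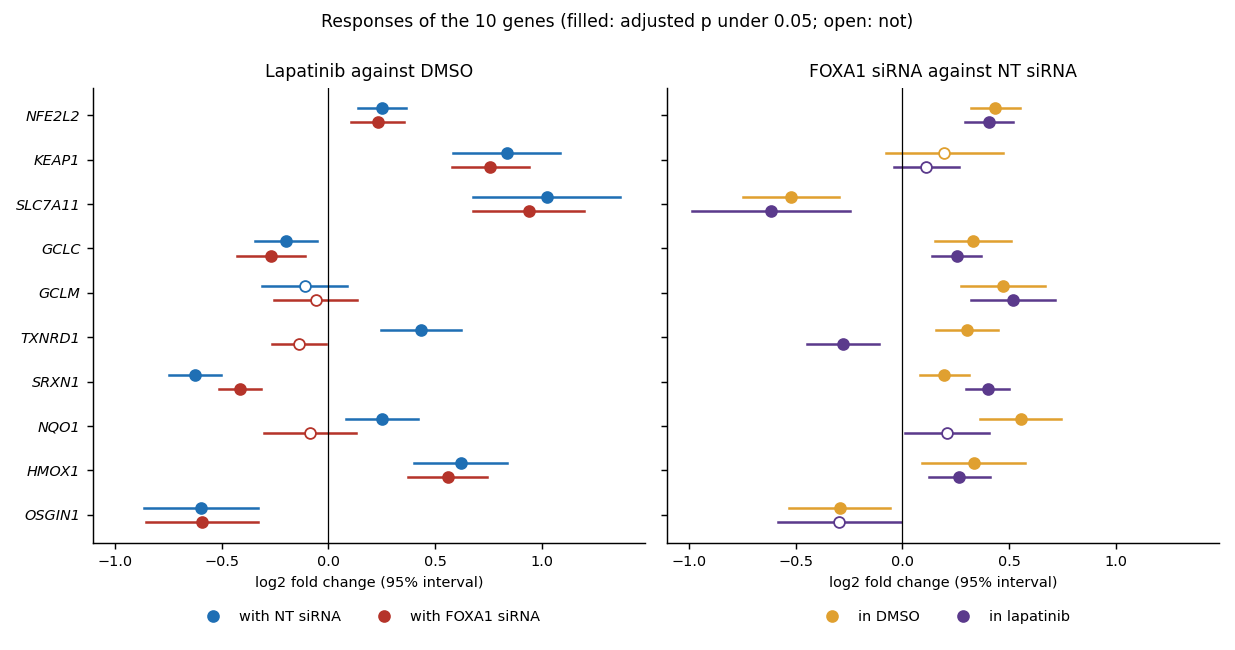
Log2 fold changes of the 10 genes with 95% intervals (horizontal axis), for lapatinib against DMSO on the left and FOXA1 siRNA against NT siRNA on the right; filled points passed an adjusted p of 0.05. The intervals of TXNRD1 lie on opposite sides of 0 in the paired comparisons of each panel, from 0.25 to 0.62 and from -0.27 to -0.01 for lapatinib.

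By TPM, which allows levels of different genes to be compared, TXNRD1, NQO1 and SRXN1 led in every group, and in NT siRNA with DMSO they were at 284, 247 and 118 TPM. NFE2L2 followed at 45.3 TPM, GCLC at 38.2, KEAP1 at 30.8 and GCLM at 29.1, where KEAP1 and GCLM overlapped between libraries and the other neighbours did not. HMOX1 at 15.5, OSGIN1 at 8.26 and SLC7A11 at 5.52 TPM were lowest. With FOXA1 siRNA, NQO1 stood above TXNRD1, at 363 against 349.5 TPM in DMSO and 332 against 309 TPM in lapatinib, and the 2 genes overlapped in both. In lapatinib SLC7A11 stood above OSGIN1 without overlap, at 10.9 against 5.3 TPM with NT siRNA and at 7.18 against 4.34 TPM with FOXA1 siRNA. KEAP1 moved from rank 6 in NT siRNA with DMSO to rank 4 in lapatinib, at 52.9 TPM, where it overlapped NFE2L2 at 52.7 TPM. Among genes with a TPM above 0, TXNRD1 stood above 97.1% of them in NT siRNA with DMSO and SLC7A11 above 42.2%.

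Levels of the 10 genes were also compared with each other and with all genes over the 12 libraries, as a description, since the libraries share groups and replicate numbers. The highest Pearson correlation of log2 normalized counts among the 10 was 0.96, between KEAP1 and HMOX1, and the lowest was -0.96, between SLC7A11 and SRXN1. NFE2L2 correlated at 0.82 with NQO1 and 0.80 with HMOX1, at -0.0031 with SRXN1 and at -0.77 with OSGIN1. Among 10804 genes with a mean normalized count of at least 100, the 3 most like NFE2L2 were GALNT3, DEPDC6 and C11orf1, each with a correlation of 0.99. TXNDC16, SAP30L and ARID1B came first for KEAP1, ATRX, TGIF1 and RERE for SLC7A11, SELT, RBBP5 and ATP2B1 for GCLC, and MRPL15, CYBASC3 and BLCAP for GCLM. C12orf24, RRP7A and VDR came first for SRXN1, CDC73, ATP2C1 and MFSD1 for NQO1, and NEK7, MCEE and MAST4 for HMOX1, while C16orf55 and APOA1BP led for OSGIN1. No other gene of the 10 was among the 3 most like any of them. TXNRD1 had the weakest leading match, SMPD1 at 0.91, before TRUB2 and FBXO28 at 0.90, while the leading match of each of the other 9 was at 0.969 or higher.

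Beyond the 10 genes, 108 genes of the pathway and its surroundings were counted in 8 lists. Lapatinib with NT siRNA raised 29 and lowered 32 of the 103 that could be tested, close to the 30.5% and 29.2% of all genes. Among the 12 partners and regulators of NRF2, 6 were higher and 1 lower, with a median log2 fold change of 0.26, and among 17 genes of aldehyde, quinone and xenobiotic handling 2 were higher and 7 lower, with a median of -0.22. Of 24 genes of glutathione synthesis, recycling and use 8 were higher and 9 lower, of 14 thioredoxin and peroxiredoxin genes 2 and 3, of 9 NADPH supply genes 2 and 3, of 11 haem and iron genes 4 and 5, and of 10 ATF4 targets 3 and 3. Of 6 superoxide and peroxide enzymes 2 were higher and 1 lower, and 3 and 2 with the replicate block.

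Among called list genes with at least 100 normalized counts on average, those that rose most with lapatinib in NT siRNA cells were TXNIP, the inhibitor of thioredoxin, at a log2 fold change of 2.60, and CHAC1, which degrades glutathione, at 2.004. They were followed by the iron exporter SLC40A1 at 1.5, the small MAF protein MAFF at 1.25 and the glutathione peroxidase GPX2 at 1.23. CHAC2, a relative of CHAC1, was lower at -1.91, the exporter ABCC4 at -1.64, the serine synthesis enzyme PSAT1 at -1.32 and the transporter ABCB6 at -1.03. A call and groups that did not overlap were conditions for naming these 9 genes, not further results. With FOXA1 siRNA the lapatinib response was 2.19 for CHAC1, 1.86 for TXNIP, 1.84 for the glutathione peroxidase GPX3, 1.33 for the glutathione transferase GSTA4 and 1.20 for NFE2L1, a relative of NRF2, and it was -2.13 for the exporter ABCC3, -1.94 for CHAC2, -1.54 for PSAT1 and -1.02 for the haem transporter SLC48A1. In that comparison 29 of 102 list genes were higher and 30 lower, near the 29% and 29.1% of all genes. Because naming was limited, a gene named in 1 comparison may also have been called in another. With NT siRNA, NFE2L1 was at 1.16 and ABCC3 at -1.56, and with FOXA1 siRNA ABCC4 was at -2.23 and MAFF at 1.17, all called. The interaction did not pass for NFE2L1, ABCC3, ABCC4 or MAFF. For ABCB6, which was at -0.50 with FOXA1 siRNA, it was called at 0.54 (adjusted p = 0.043). The interaction calls of TXNIP, GPX3 and SLC48A1 are given further below. GPX2 did not pass for lapatinib with FOXA1 siRNA, at 0.23 (adjusted p = 0.497). Its interaction, at -0.98 ± 0.37 (SE; adjusted p = 0.142), did not pass either. A difference in the GPX2 response between the siRNA pools was therefore not established.

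FOXA1 siRNA in DMSO raised 30 and lowered 23 of 102 list genes, and 39 and 31 with the block, where 21.9% of all genes were higher and 21.3% lower without it. For the comparisons of FOXA1 siRNA with NT siRNA, no share of all genes with the block is given. Of the 11 haem and iron genes 6 were higher and 2 lower, with a median of 0.20, and of the 12 partners and regulators 4 were higher and 2 lower. Of 14 thioredoxin and peroxiredoxin genes 5 were higher and 1 lower, and 8 and 2 with the block. Of 16 genes of aldehyde, quinone and xenobiotic handling 4 were higher and 4 lower, and 6 and 7 with the block. The other lists had 5 higher and 6 lower of 24 for glutathione, 2 and 3 of 9 for NADPH supply, 3 and 4 of 10 for ATF4 targets, and 1 and 1 of 6 for superoxide and peroxide enzymes, where the block gave 3 and 2. The exporter ABCC3 was higher by 1.30, the mTORC1 inhibitor DDIT4 by 1.25, NFE2L3, another relative of NRF2, by 1.24, the NADPH-producing IDH1 by 1.15 and GGT1, which breaks down extracellular glutathione, by 1.04. SOD3, the extracellular superoxide dismutase, was lower at -1.59, UGDH, which makes UDP-glucuronate, at -1.20 and GPX2 at -1.20.

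**Figure D4:**
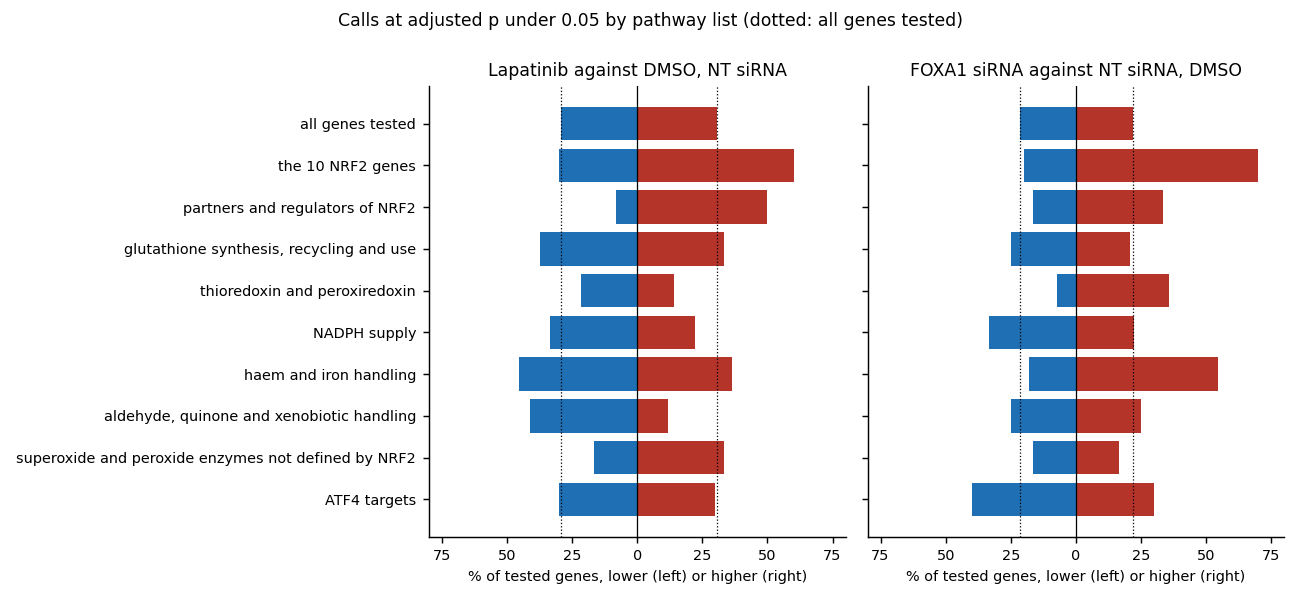
Percent of tested genes called lower (blue, left) or higher (red, right) in each pathway list, for lapatinib with NT siRNA and for FOXA1 siRNA in DMSO; dotted lines mark all genes tested. The 10 NRF2 genes had 6 and 7 genes higher in these comparisons, and the 12 partners and regulators 6 and 4.

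In lapatinib, FOXA1 siRNA raised 25 and lowered 19 of 103 list genes, and 35 and 32 with the block, where 22.7% of all genes were higher and 22.2% lower without it. None of the 12 partners and regulators passed, against 5 higher with the block, and of 24 glutathione genes 7 were higher and 3 lower, against 8 and 10 with the block. The glutaredoxin GLRX was higher by 1.17, ABCC2 by 1.16, DDIT4 by 1.14, GGT1 by 1.13 and IDH1 by 1.12, while GPX2 was at -2.20, SOD3 at -1.76 and the biliverdin reductase BLVRA at -1.14. The call of GLRX was lost without NT siRNA lapatinib replicate 1 (adjusted p = 0.0582) or 3 (adjusted p = 0.0596). In cells with both treatments, 36 of 103 list genes were higher and 43 lower than in cells with neither, where 33.9% of all genes were higher and 32.5% lower. They were led by TXNIP at 2.46, CHAC1 at 1.88, GPX3 at 1.78, IDH1 at 1.77 and GSTA4 at 1.498, and by ABCC4 at -2.32, CHAC2 at -1.96, PSAT1 at -1.67, SOD3 at -1.34 and UGDH at -1.17.

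The interaction was called for 6 list genes with a higher and 6 with a lower lapatinib response under FOXA1 siRNA, of 103, where 3.99% of all genes were called higher and 3.2% lower. With the block it was called for 21 and 15 list genes, and over all 14012 genes for 1561 and 1292. Those with the smallest p were GPX3 at 1.02 (adjusted p = 0.00493), the small MAF gene MAFK at 0.47 (adjusted p = 0.0105) and the transferrin receptor TFRC at 0.23 (adjusted p = 0.0327) on the higher side. On the lower side they were catalase, CAT, at -0.62 (adjusted p = 0.000939), TXNIP at -0.73 (adjusted p = 0.00326) and SLC48A1 at -0.60 (adjusted p = 0.00757). TXNIP was still raised by lapatinib with FOXA1 siRNA, at 1.86 against 2.60 with NT siRNA. The call of TFRC was lost in 7 of the 12 fits that left out 1 library, with adjusted p of up to 0.0893. ERBB2, the gene of HER2, lay at 210899 to 249067 normalized counts in NT siRNA with DMSO and 428555 to 458312 with lapatinib, and with FOXA1 siRNA at 197249 to 214836 in DMSO and 322162 to 334382 in lapatinib.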

How the data were processed

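RNAseq was performed by the authors on 12 SKBR-3 libraries in 4 groups, taken from the labels. The authors deposited, per gene and library, an expected count (an estimated number of reads that need not be whole), a TPM, and a normalized signal, the expected count scaled by the upper quartile of the library. The methods describe STAR for alignment (hg38) and Salmon for quantification, but the column names of the files belong to RSEM, which the submitters' processing notes list beside DESeq2 1.12.3. Whether strand was used in counting is not given in the sources used here, and the labels name both a stranded and an unstranded library kit. The labels give 48 h of siRNA before the drug and the methods a shorter time.

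Expected counts were rounded and tested in R 4.3.3 with edgeR 4.0.16 (TMM, glmQLFit and glmQLFTest), on the 6 libraries of each comparison or on all 12 for the interaction. A gene was tested where any library of the fit held 10 counts or more, 29 rows with an Entrez ID but no symbol (0.0314% to 0.0459% of a library) included. A call is a p under 0.05 after Benjamini-Hochberg adjustment over all genes tested. Standard errors were derived from each fold change and its F value. An exact permutation test of 3 against 3 cannot go below 0.1 and was not used. TPM served for levels between genes. A library held 25749578 to 32271850 counts, and the precision this gives covers counting error only.

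The 10 genes and the pathway lists were chosen with earlier results of these data known. List genes were named where called with a change of 1 or more in size (log2), groups that did not overlap and a mean of at least 100 normalized counts, at most 5 per direction, and for the interaction the 3 with the smallest p per direction. The 3 genes most correlated with each of the 10 were named, and 1 gene this covers is not reported here. Same-numbered samples deviated together from their group means over 12126 genes (mean correlation 0.395 over 18 pairs, lowest 0.243; -0.186 over 36 pairs with different numbers), so the replicate number, which pairs the samples by this check and not by the labels, was used as a block in an alternative fit. Other alternatives were RLE and upper-quartile scaling, DESeq2 1.42.0, no filter, at least 10 counts in every library, all 12 libraries in 1 model, an adjusted p under 0.01, a fold minimum and leaving out each library. Leaving out replicate 2 of every group was added after seeing the data. The fits were also run on simulated counts. These had no effect of replicate number, so that run says nothing about the effect seen here. Promoters and gene positions are from RefSeq (GRCh38.p14), exon overlaps from GENCODE v44, and the files hold no coordinates.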

Additional observations from a re-analysis of the deposited data

Results flagged for a closer look

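The lapatinib responses of 2 genes differed between the siRNA pools by the interaction test over all 12 libraries. For TXNRD1 the response with FOXA1 siRNA was lower, with a difference of -0.56 on the log2 scale (SE 0.11, adjusted p = 0.00922), with log2 ratios of lapatinib to DMSO of 0.40, 0.34 and 0.48 in replicates 1, 2 and 3 of NT siRNA and of -0.22, -0.05 and -0.17 with FOXA1 siRNA. For SRXN1 it was higher by 0.22 (SE 0.06, adjusted p = 0.0449), a call that was lost in 11 of the 12 fits that left out 1 library.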

How the results depend on the processing

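The number of the 10 genes called was 9 for lapatinib with NT siRNA, 9 for FOXA1 siRNA in DMSO, 7 for FOXA1 siRNA in lapatinib, 7 for lapatinib with FOXA1 siRNA, 9 for both treatments against neither and 2 for the interaction. RLE scaling, DESeq2 and the filter of 10 counts in every library kept each of these counts within 1.5 times. With a fold minimum (log2) of 1 also required the counts were 1, 0, 0, 0, 0 and 0. An adjusted p under 0.01 left 5 genes for FOXA1 siRNA in DMSO and 1 for the interaction, and upper-quartile scaling and no filter each left 1 for the interaction. Leaving out each library in turn gave 7 to 8, 6 to 8, 5 to 8, 7 to 8, 8 to 9 and 1 to 2 genes, and leaving out replicate 2 of every group 9, 9, 8, 8, 9 and 3. The fits without replicate 2 called 9150, 7508, 6935, 8259, 9785 and 2518 of all genes, more than with it in each comparison. Blocking on replicate number, the counts were 9, 10, 10, 9, 9 and 3, and beyond the genes given with their blocked p above, the block changed no other call of the 10 genes. The count over all genes with the block is given only for the interaction. The other blocked counts, those of the lists included, therefore cannot be set against all genes. Over all genes, the interaction was called higher for 559 and lower for 449, and with the block for 1561 and 1292, without replicate 2 for 1426 and 1092, and with 1 library left out for as few as 300 higher (without FOXA1 siRNA DMSO replicate 3) and 242 lower (without FOXA1 siRNA lapatinib replicate 1). By the deposited upper-quartile values, which are not corrected for length, 3 of the 10 genes kept the rank they had by TPM in NT siRNA with DMSO.

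No change past the threshold turned its direction under any alternative. Among values that did not pass, some changed sign when 1 library was left out. GCLM under lapatinib with FOXA1 siRNA ranged from -0.13 to 0.0217, and GCLC with both treatments from -0.0034 to 0.10. The interaction ranged from -0.0465 to 0.0219 for NFE2L2, from -0.143 to 0.0584 for KEAP1, from -0.20 to 0.12 for SLC7A11 (0.02 without replicate 2 of every group), from -0.13 to 0.00034 for GCLC, from -0.0029 to 0.14 for GCLM, from -0.106 to 0.0439 for HMOX1 and from -0.0403 to 0.10 for OSGIN1. The cause was not tested. Upper-quartile and RLE scaling moved the median of all genes by less than 0.1 (log2). At this depth and with 3 replicates, differences that did not pass are bounded only by the intervals given above.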
